A study of Mus musculus with 10 samples.

Results

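Far-distal location regions are stretches of the mouse genome that differed in CpG methylation between mesenteric lymph nodes (mLN), which drain the gut, and peripheral lymph nodes (pLN), which drain the skin, and that lay more than 50000 bp from the nearest transcription start site (TSS) in the deposited annotation. They were taken from the 2 tables of differentially methylated regions (DMRs) between mLN and pLN, of which 1 was called in specific pathogen-free (SPF) mice and 1 in germ-free (GF) mice. Of 806 SPF location DMRs 251 passed this limit, and of 1293 GF location DMRs 367 did. Merging those that shared at least 1 bp left 464 far-distal regions out of 1602 regions in the whole series. Of these, 132 held a DMR of both tables, 119 of the SPF table alone and 213 of the GF table alone.

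Whole-genome bisulfite sequencing was performed on CD45-CD31-Ter119-Pdpn+ non-endothelial stromal cells (SCs) of adult BALB/c mice. The 10 libraries comprised 3 of mLN and 3 of pLN from SPF mice, and 2 of mLN and 2 of pLN from GF mice. All 4 groups shared the strain label and the sort and carried no transgene in the labels. According to the methods of the study, mice were female unless stated otherwise, the age ranges of SPF and GF mice overlapped without being identical, the SPF BALB/c line carried a congenic CD90 allele, and the germ-free colony had been founded elsewhere by caesarean section. Colony and facility can therefore not be told apart from housing. The authors had removed an outlying GF replicate of each node, so the GF spread is that of the replicates kept. The methods place bulk replicates in independent experiments, but neither they nor the labels say whether animals were pooled, and p-values measure only the spread between these libraries. The sort could not be checked against expression, since the data held methylation inside DMRs only. Of 19 marker genes of stromal, endothelial, haematopoietic and erythroid cells, 0 were the nearest gene of a far-distal region, and 2 (Cxcl13 and Kdr) were the nearest gene of any DMR.

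DNA methylation in mammals is placed mostly on the cytosine of CpG dinucleotides. Most of the genome away from gene starts is highly methylated, and enhancers, which act on promoters over long distances, often stand out there as stretches of intermediate or low methylation when they are bound by transcription factors. Stromal cells of lymph nodes build the scaffold of the organ and guide lymphocytes, and fibroblasts are known to keep a record of their position in the body in the activity of homeobox genes. A region is named here by the gene whose TSS was nearest in the deposited table, which does not say that it acts on this gene.

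The sequences of 7 far-distal regions are shown to let the CpGs behind the values be seen. They are the regions with the 3 largest differences in each direction among those with at least 10 measured CpGs, and the fourth in the direction of mLN, which lay in a coding exon. For each the 240 bases with the most measured CpGs are given on the forward strand of GRCm38, the C57BL/6J reference, which may differ from BALB/c at single bases. Measured CpGs are in capitals. The first 3 were less methylated in mLN and the other 4 were more methylated in mLN.
Celrr, chr1:121177237-121177476: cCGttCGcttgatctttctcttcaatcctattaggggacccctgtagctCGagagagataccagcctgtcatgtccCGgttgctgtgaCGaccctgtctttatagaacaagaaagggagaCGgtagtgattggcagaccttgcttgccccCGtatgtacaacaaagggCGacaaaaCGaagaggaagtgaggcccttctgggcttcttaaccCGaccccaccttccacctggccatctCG
Slc16a7, chr10:125570496-125570735: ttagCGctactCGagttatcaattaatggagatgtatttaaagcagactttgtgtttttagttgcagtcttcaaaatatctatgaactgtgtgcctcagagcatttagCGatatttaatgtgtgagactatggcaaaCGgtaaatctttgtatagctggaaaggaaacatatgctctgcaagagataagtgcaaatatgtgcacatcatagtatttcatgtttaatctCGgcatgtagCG
Pvrl3, chr16:46617614-46617853: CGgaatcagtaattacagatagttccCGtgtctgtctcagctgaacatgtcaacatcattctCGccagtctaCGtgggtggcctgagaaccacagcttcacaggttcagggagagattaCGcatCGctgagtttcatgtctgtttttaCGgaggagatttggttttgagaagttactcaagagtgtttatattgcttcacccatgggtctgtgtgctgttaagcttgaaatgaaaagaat
Dysf, chr6:84333832-84334071: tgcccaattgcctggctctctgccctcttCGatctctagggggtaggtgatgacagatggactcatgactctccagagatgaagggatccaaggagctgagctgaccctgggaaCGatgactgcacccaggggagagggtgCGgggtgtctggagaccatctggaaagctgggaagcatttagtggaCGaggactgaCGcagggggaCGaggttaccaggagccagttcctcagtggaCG
Gm9915, chr1:41759362-41759601: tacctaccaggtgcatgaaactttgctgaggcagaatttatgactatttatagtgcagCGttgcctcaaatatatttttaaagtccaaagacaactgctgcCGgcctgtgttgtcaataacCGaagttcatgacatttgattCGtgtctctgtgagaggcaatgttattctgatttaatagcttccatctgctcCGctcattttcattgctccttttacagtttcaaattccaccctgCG
Gm13535, chr2:57326200-57326439: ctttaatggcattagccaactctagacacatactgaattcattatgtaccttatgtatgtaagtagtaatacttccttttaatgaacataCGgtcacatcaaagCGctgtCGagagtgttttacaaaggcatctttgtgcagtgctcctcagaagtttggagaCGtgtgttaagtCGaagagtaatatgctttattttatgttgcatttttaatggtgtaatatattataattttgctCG
Arhgap18, chr10:26984263-26984502: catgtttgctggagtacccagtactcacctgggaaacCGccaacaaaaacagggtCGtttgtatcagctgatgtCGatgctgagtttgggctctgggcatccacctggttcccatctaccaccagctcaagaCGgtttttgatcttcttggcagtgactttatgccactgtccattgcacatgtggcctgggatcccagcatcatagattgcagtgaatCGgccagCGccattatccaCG

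Within these stretches the mean methylation over the 5 libraries of each node differed at each CpG shown. The 11 CpGs of the Celrr stretch had a mean of 22.7% over the 5 mLN libraries and 75.4% over the 5 pLN libraries. In the Slc16a7 stretch the 6 CpGs lay between 2.00% and 35.7% in mLN and between 55.4% and 92.3% in pLN. The Pvrl3 stretch had a mean of 9.14% in mLN and 61.4% in pLN over 7 CpGs. The opposite order was seen in the Dysf stretch, where 7 CpGs lay between 46.0% and 87.1% in mLN and between 4.40% and 17.0% in pLN. These values pool SPF and GF libraries. At the Dysf CpG 19 bp from the centre of the region, the GF means were 16.7% in mLN and 21.4% in pLN. The 6 CpGs of the Gm9915 stretch did not exceed 6.67% in pLN and reached 47.6% to 83.5% in mLN. In the Gm13535 stretch the mean over 6 CpGs was 87.4% in mLN against 27.9% in pLN, and in the Arhgap18 stretch it was 76.9% against 15.0% over 7 CpGs. These values come from the libraries in which the DMRs were called and are given as a description.

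**Figure D1:**
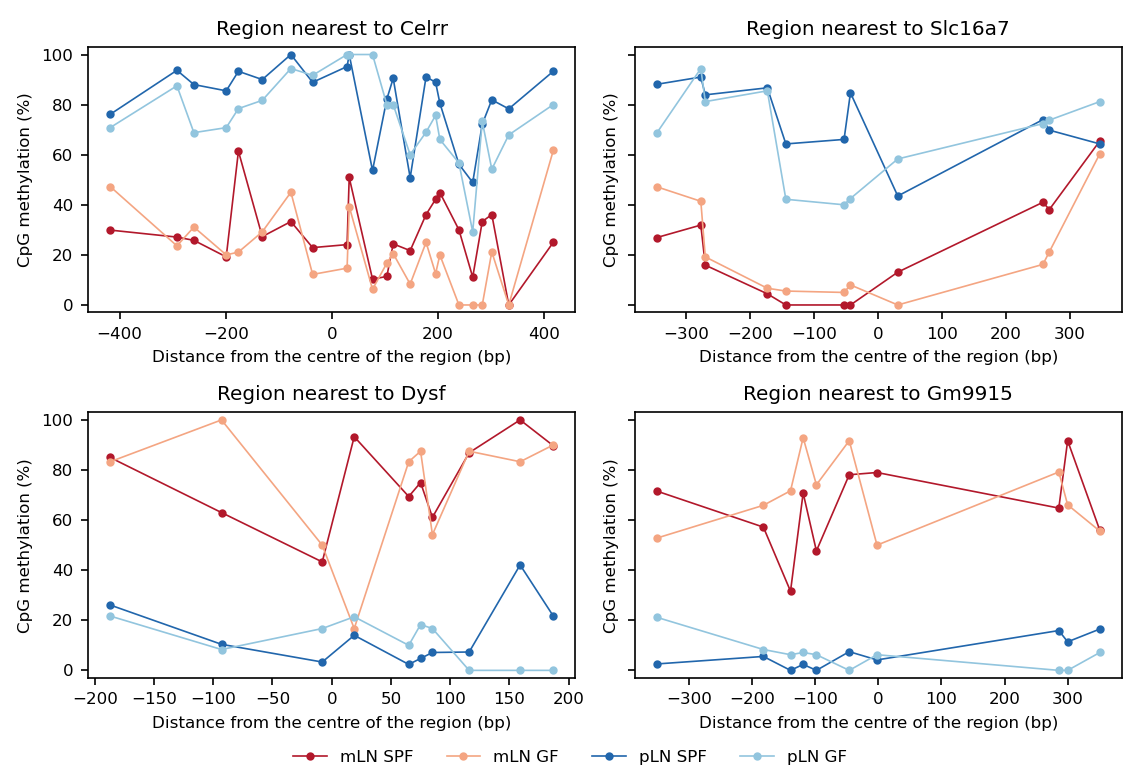
Methylation of single CpGs (%, y axis) along 4 far-distal regions against the distance from the centre of the region (bp, x axis), as the mean over the libraries of each group (points joined by lines). The regions nearest to Celrr and Slc16a7 were less methylated in mLN at all 23 and 11 CpGs, and those nearest to Dysf and Gm9915 more methylated in mLN at all 10 CpGs each, taking the mean over the 5 libraries of each node. At the Slc16a7 CpG at 347 bp the SPF means were in the other order, with 65.5% in mLN and 64.3% in pLN. At the Dysf CpG at 19 bp the GF means were, with 16.7% in mLN and 21.4% in pLN.

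The far-distal regions were mostly intergenic stretches, and they were partly methylated, as were the nearer location regions. Their median length was 698 bp with 14 measured CpGs (range 3 to 56), against 525 bp and 11 CpGs in the 1111 location regions nearer to a TSS. The median CpG density was 1.87 and 1.90 per 100 bp, and the median G+C content was 45.2% and 47.0%. By the reference annotation 305 (65.7%) far-distal regions were intergenic, 132 (28.4%) lay in introns and 27 (5.82%) overlapped an exon, whereas 38.4% of the nearer regions were intergenic. In the node where a far-distal region was less methylated, its median level was 37.4%, and in the other node it was 69.0%. The nearer regions were much alike, with 36.7% and 66.7%. In the less methylated node 10 (2.16%) were below 10%, against 4.68% of the nearer regions. Between 10% and 50% lay 354 (76.3%), against 75.8%. The median size of the difference was 28.7 points and the median SD between replicates was 5.42 points, against 27.4 and 5.95 points in the nearer regions. Since the DMRs were called on a minimum difference, these sizes were partly fixed by the selection.

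The 464 regions held 7400 CpGs over 372492 bp, and 99.7% to 99.9% of these CpGs had a value in each library. Between 19.2% and 26.2% of them were listed at exactly 0 or 100% in a library. The read depth behind a CpG was not used here and is unknown, so no counting interval is given. A total of 65 regions had fewer than 5 CpGs and their values rest on few sites. The median distance to the nearest TSS was 105706 bp, 250 regions lay beyond 100000 bp and 36 beyond 300000 bp. The share of location regions that were far-distal differed along the genome, from 8 of 82 on chromosome 11 to 40 of 85 on chromosome 8 and 32 of 63 on chromosome 15, and chromosome X held 0 of 6.

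Distance depended on the annotation. The nearest gene in the deposited tables was protein coding for 220 regions, a lincRNA for 60, a processed pseudogene for 46 and a small RNA of the snRNA, miRNA or snoRNA class for 35, 29 and 23. In GENCODE vM21, 226 (48.7%) of the 464 regions still lay over 50000 bp from every TSS, and 46 lay within 5000 bp of one. With protein-coding genes alone, 452 (97.4%) lay beyond 50000 bp, with a median distance of 154519 bp. Most members thus lie far from the starts of protein-coding genes, while 238 lie within 50000 bp of some start in GENCODE vM21.

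The direction of the difference varied with distance. Of the 464 far-distal regions 282 (60.8%) were more methylated in mLN and 182 were less methylated. At 5 to 50 kb from a TSS 50.9% of 601 regions were more methylated in mLN, at 2 to 5 kb 40.8% of 196 and at up to 2 kb 35.4% of 314. The same order was present in each table on its own. In the SPF table the share more methylated in mLN was 42.3% at up to 2 kb, 47.9% at 2 to 5 kb, 59.9% at 5 to 50 kb and 70.1% beyond 50 kb, and in the GF table it was 31.6%, 36.6%, 48.5% and 57.8%. Among the far-distal regions the share did not keep rising, with 60.3% of 214 at 50 to 100 kb, 59.9% of 177 at 100 to 200 kb, 45.9% of 37 at 200 to 300 kb and 83.3% of 36 beyond 300 kb. It was 65.2% in intergenic regions, 49.2% in introns and 66.7% in the 27 exonic ones. In the 226 regions that kept their distance in GENCODE vM21 it was 65.5%, and in the 452 far from protein-coding starts it was 60.6%. These shares describe regions called on these libraries, and the tables share 132 far-distal regions, so no test was made of them.

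The mean level over all far-distal regions was higher in mLN than in pLN libraries. It was 56.3%, 58.8% and 56.4% in the mLN SPF libraries and 56.7% and 57.6% in the mLN GF libraries. In pLN it was 48.2%, 50.1% and 48.7% in SPF mice and 50.1% and 49.5% in GF mice. The mLN and pLN libraries did not overlap. In regions up to 2 kb from a TSS the order of the nodes was turned around, and the SPF libraries averaged 45.9% ± 1.45 (SD, n = 3) for mLN but 52.6% ± 1.10 (SD, n = 3) for pLN. In each mLN library the far-distal regions lay above the promoter-proximal ones, which had 43.2% to 47.3% there, and in each pLN library they lay below them, with 51.5% to 54.7% in the promoter-proximal regions. The mean over all 10 libraries, 4.10 points with an SD of 8.47 points, averages over these opposite signs, and the exact sign-flip permutation test within libraries (two-sided p = 0.146, with a floor of 0.00195) therefore does not bear on a difference in level. The order within each node follows from the directions in which the regions were called.

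**Figure D2:**
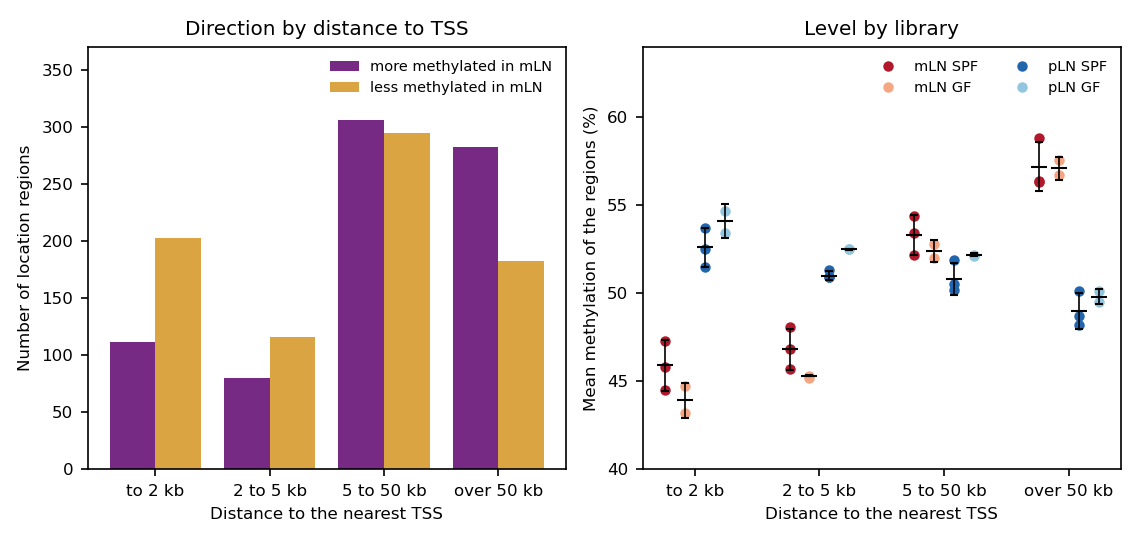
Left, the number of location regions (y axis) more or less methylated in mLN by distance to the nearest TSS (x axis). Right, the mean methylation (%, y axis, which starts at 40%) of the regions of each distance class, with 1 point per library and the mean ± SD of each group in black; mLN libraries lie below pLN libraries up to 2 kb and above them beyond 50 kb, where they range from 56.3% to 58.8% against 48.2% to 50.1%.

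In the 282 regions more methylated in mLN, the mean of mLN was 68.5% ± 2.36 (SD, n = 3) for SPF libraries and 70.1% ± 0.366 (SD, n = 2) for GF libraries. The mean of pLN was 39.3% ± 0.954 (SD, n = 3) and 38.9% ± 0.157 (SD, n = 2). In the 182 regions less methylated in mLN, the mean of mLN was 39.5% ± 2.30 (SD, n = 3) for SPF libraries and 37.1% ± 1.09 (SD, n = 2) for GF libraries, and that of pLN was 64.2% ± 1.10 (SD, n = 3) and 66.7% ± 1.34 (SD, n = 2). Replicate 3 of mLN SPF lay closest to the pLN libraries in both directions, at 66.1% and 41.4%. In 390 of the 464 regions (84.1%) the 5 mLN and the 5 pLN libraries did not overlap. This count uses the libraries of the calls and has no share of the nearer regions beside it. It therefore does not set the far-distal regions apart. As the cells were measured in bulk, a shift in the shares of stromal subsets and a change within cells cannot be told apart.

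**Figure D3:**
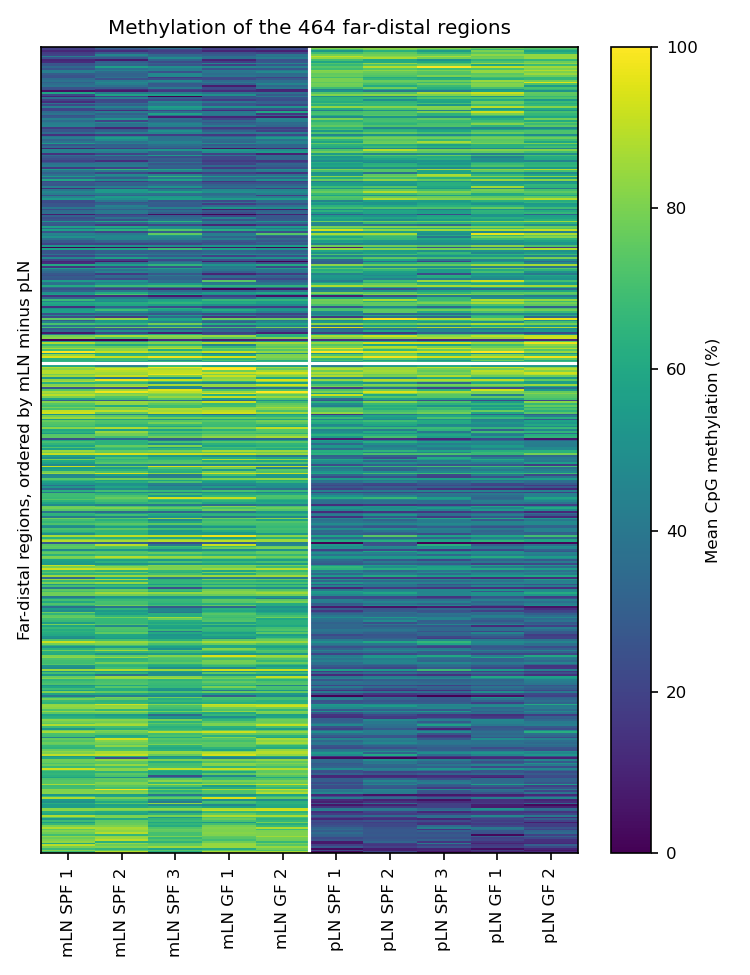
Mean CpG methylation (colour, %) of the 464 far-distal regions (rows, ordered by mLN minus pLN) in the 10 libraries (columns). White lines separate mLN from pLN and the 182 regions less methylated in mLN (top) from the 282 more methylated ones (bottom). Of these regions 132 were called in both housing conditions and the rows are ordered over all 10 libraries, so the likeness of SPF and GF columns is partly fixed by the selection.

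To ask whether the location differences of far-distal DMRs were present in mice that had no part in the call, each table was measured in the libraries of the other housing condition. The far-distal SPF location DMRs kept their direction in GF mice in 244 of 251 cases (97.2%), against 97.6% of all 806 SPF location DMRs. Where the SPF call was towards mLN, the mLN GF libraries had 69.8% and 70.1% and the pLN GF libraries 39.2% and 38.8%. In those less methylated, they had 40.7% and 42.5% in mLN and 69.7% and 68.1% in pLN. In both sets no library overlapped with the other node. The median difference in the called direction was 30.50 points in the DMRs more methylated in mLN and 27.77 points in those less methylated.

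Limma called 220 of the 251 far-distal SPF location DMRs in GF mice (87.6%; adjusted p under 0.05), 157 more and 63 less methylated in mLN, while 89.1% of all 806 SPF location DMRs were called. The libraries of the 2 nodes did not overlap in the called direction in 231 (92%), against 93.5% of all 806. Far-distal DMRs thus had a share near that of the whole table. The median difference was 29.59 points (median SE 4.64), and 169 (67.3%) reached 25 points, against 69.4% of all 806. Of the 220 calls, 219 had the direction of the SPF libraries. The 1 exception was the DMR nearest to Gm5335 (chr7:72901889-72902133, 3 CpGs), which was 0.388 points lower in mLN than in pLN of SPF mice and 16.6 ± 5.44 points (SE) higher in GF mice (limma adjusted p = 0.0263). Without replicate 1 or 2 of mLN GF or replicate 2 of pLN GF the limma adjusted p was 0.121, 0.0729 and 0.115, and with medians over CpGs it was 0.129.

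The mean difference in the called direction over the 251 DMRs was 29.9 points in GF mice, against an SD between replicates of 0.227 points. With 2 against 2 libraries an exact permutation test cannot go below p = 0.333 (two-sided), which is the value obtained. Far-distal minus the 555 nearer SPF location DMRs was -2.36 points (SD 0.413; exact permutation p = 0.333, two-sided, the smallest value possible), which could not pass the threshold in this design.

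The far-distal GF location DMRs kept their direction in SPF mice in 361 of 367 cases (98.4%), against 97.5% of all 1293 GF location DMRs. Where the GF call was towards mLN, the mLN SPF libraries had 68.4%, 70.8% and 64.9% and the pLN SPF libraries 35.8%, 38.0% and 36.3%. In those less methylated, the values were 35.5%, 39.0% and 40.8% in mLN and 61.7%, 64.5% and 62.4% in pLN. The nodes did not overlap in either set. Limma called 313 of the 367 (85.3%; adjusted p under 0.05), 189 more and 124 less methylated in mLN, all in the direction of the GF libraries, while 82.3% of all 1293 GF location DMRs were called. The libraries did not overlap in the called direction in 314 (85.6%), against 81.4% of the whole table. The median difference was 27.75 points (median SE 5.06), below the 32.91 points in the GF libraries that made the call. A total of 212 (57.8%) reached 25 points, against 54.1% of the whole table.

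The mean difference over the 367 DMRs was 28.4 points in SPF mice (SD between replicates 1.74; exact permutation p = 0.10, two-sided, which is the floor for 3 against 3 libraries). Here the far-distal DMRs differed by 1.53 points more than the 926 nearer ones (SD 0.651; exact permutation p = 0.10, two-sided, the smallest value possible). The sign of far-distal against nearer DMRs was therefore opposite in the 2 tables. At the level of single CpGs, 4130 of 4818 CpGs (85.7%) in far-distal SPF location DMRs had the called sign in GF mice, and 4195 of 4636 (90.5%) in far-distal GF location DMRs had it in SPF mice. These shares have no share of the nearer DMRs beside them, and CpGs of the same DMR are not independent. They also rest on different numbers of libraries, so they are given as a description only.

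**Figure D4:**
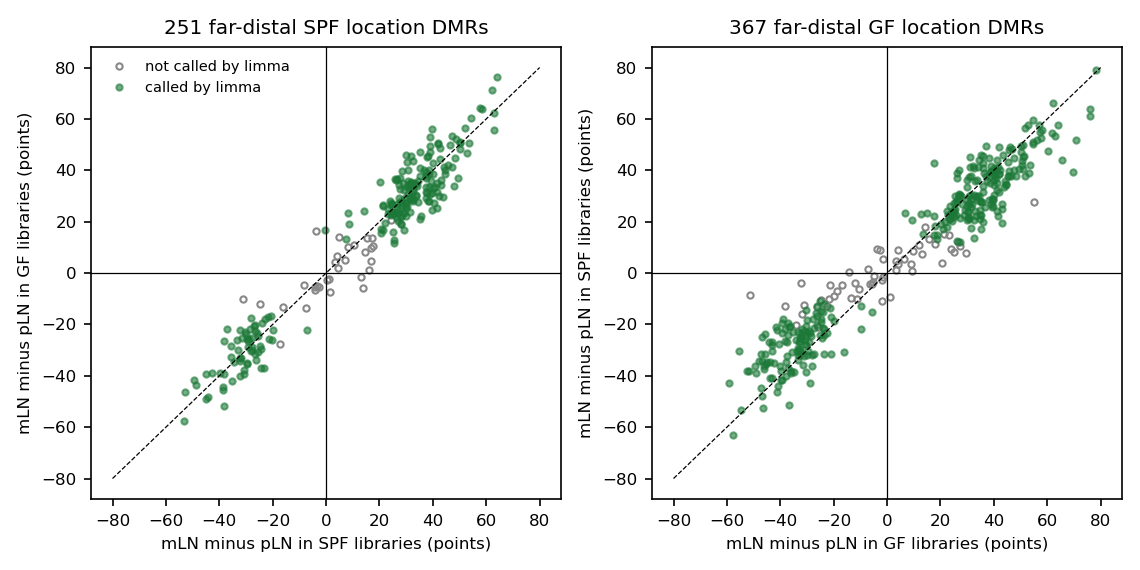
Difference of mLN minus pLN in methylation (percentage points) of each far-distal DMR in the libraries of its call (x axis) and in the libraries of the other housing condition (y axis), for the 251 SPF (left) and 367 GF (right) location DMRs. Filled points passed limma in the libraries on the y axis (220 and 313); the dashed line marks equal differences, and 244 and 361 points lie where both differences have the same sign.

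The largest differences towards mLN lay near genes of varied function. At the region of chr6:84333767-84334141, 123283 bp from Dysf, which encodes the membrane repair protein dysferlin, methylation was 81.0%, 75.6% and 73.4% in mLN SPF, 74.7% and 72.5% in mLN GF, 20.4%, 9.36% and 12.0% in pLN SPF and 16.6% and 6.0% in pLN GF libraries. The nearest protein-coding start in GENCODE vM21 was Cyp26b1, which encodes an enzyme that degrades retinoic acid, 253539 bp away. The SPF DMR differed by 62.3 ± 5.07 points (SE) in GF mice (limma adjusted p = 4.41e-04).

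The region of chr1:41759251-41759953, 469771 bp from the lincRNA Gm9915, was almost free of methylation in pLN. Its values were 2.50%, 7.97% and 9.30% in pLN SPF and 3.0% and 9.52% in pLN GF libraries, against 68.9%, 66.3% and 59.3% in mLN SPF and 61.8% and 78.2% in mLN GF libraries. In GF mice the difference was 63.7 ± 6.47 points (SE; limma adjusted p = 5.17e-04). The farthest member of all, chr1:41610743-41611778 at 617946 bp, had the same nearest gene and was also more methylated in mLN, with 58.3% to 64.5% in mLN SPF against 21.0% to 24.3% in pLN SPF libraries.

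Some of the far-distal regions lay inside genes other than the nearest one. The region of chr2:57325955-57326465, named by the pseudogene Gm13535 at 50268 bp, lay in an intron of Gpd2, which encodes the mitochondrial glycerol-3-phosphate dehydrogenase. It had 79.3%, 81.1% and 85.3% in mLN SPF, 84.7% and 84.2% in mLN GF, 27.5%, 19.8% and 25.6% in pLN SPF and 18.9% and 21.7% in pLN GF libraries. The region of chr10:26984205-26984675, 120863 bp from Arhgap18, overlapped a coding exon of Lama2, which encodes a laminin chain of basement membranes. It had 66.9% to 84.2% in mLN SPF and 22.6% to 25.9% in pLN SPF libraries, and its SPF DMR differed by 60.5 ± 4.19 points (SE) in GF mice (limma adjusted p = 3.85e-04).

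The region of chr12:98333906-98335358 near Gpr65, the gene of a proton-sensing receptor, was among the longer ones with 32 CpGs. It ranged from 79.3% to 83.3% in mLN SPF and from 27.0% to 30.4% in pLN SPF libraries, and in GF mice it had 75.7% and 85.8% in mLN against 29.3% and 30.8% in pLN. The others of the 8 largest in this direction lay nearest to Gm8825, Tbc1d30, which encodes a GTPase-activating protein for Rab proteins, and Mgat4c, a glycosyltransferase gene. Their differences over all libraries were 50.1, 49.6 and 49.5 points. The mLN and pLN libraries did not overlap in these 8 regions, which follows from choosing them by this difference.

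**Figure D5:**
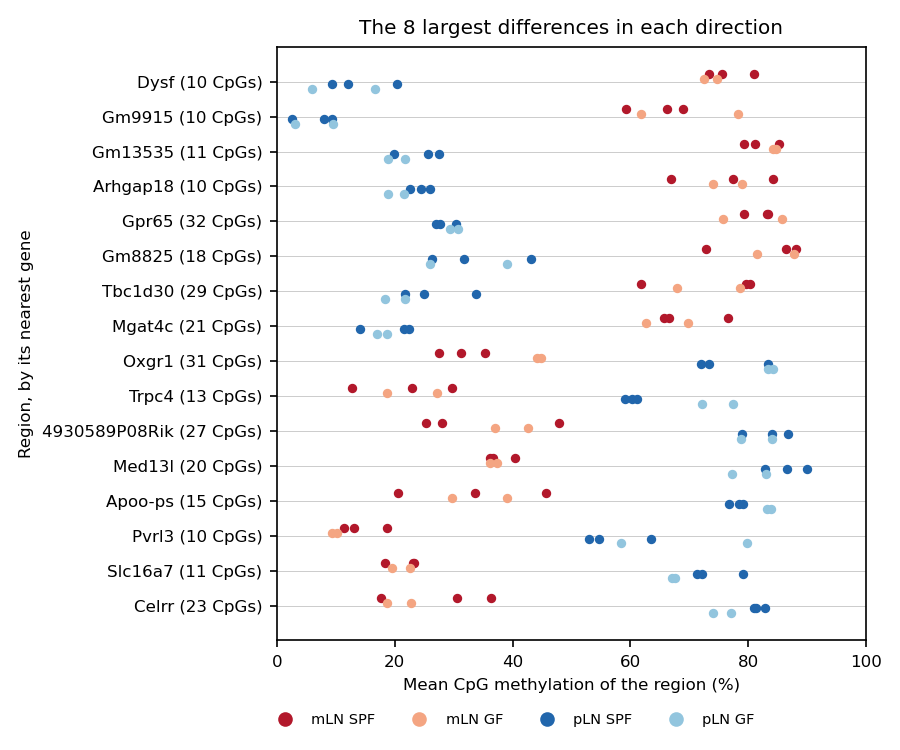
Mean CpG methylation (%, x axis) of the 8 far-distal regions with the largest difference in each direction among those with at least 10 CpGs (y axis, named by the nearest gene), with 1 point per library coloured by group. The mLN and pLN libraries are apart in all 16 regions, which were chosen for this difference over the same libraries. At Oxgr1 the 2 mLN GF libraries (44.2% and 44.9%) lie above the 3 mLN SPF ones, and at Trpc4 the 2 pLN GF libraries (72.1% and 77.5%) lie above the 3 pLN SPF ones.

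In the opposite direction the largest difference was found at chr1:121176791-121177627, in an intron of the lincRNA gene Celrr and 89264 bp from its listed start. Methylation was 17.6%, 30.6% and 36.4% in mLN SPF, 18.6% and 22.8% in mLN GF, 81.0%, 82.9% and 81.3% in pLN SPF and 77.0% and 74.0% in pLN GF libraries. All mLN libraries were far below all pLN libraries. The SPF DMR differed by -57.7 ± 4.45 points (SE) in GF mice (limma adjusted p = 4.34e-04), and the GF DMR by -53.5 ± 5.40 points (SE) in SPF mice (limma adjusted p = 2.20e-05).

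At chr10:125570431-125571124, 241467 bp from Slc16a7, which encodes a monocarboxylate transporter, the mLN libraries ranged from 18.3% to 23.2% in SPF mice and were 19.5% and 22.5% in GF mice. The pLN libraries had 71.3%, 79.2% and 72.1% in SPF mice and 67.0% and 67.6% in GF mice. The region near Pvrl3, the gene of the adhesion molecule nectin-3 (chr16:46617614-46618155), had the lowest mLN values of the group, with 11.3%, 13.1% and 18.6% in SPF and 10.2% and 9.26% in GF libraries, against 53.0% to 63.5% in pLN SPF libraries. Its GF DMR differed by -42.7 ± 4.78 points (SE) in SPF mice (limma adjusted p = 3.58e-05).

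The remaining ones lay near Med13l, the gene of a Mediator subunit, in an intron of Camta1, which encodes a calmodulin-binding transcription activator, near Trpc4, the gene of a cation channel, near the pseudogene Apoo-ps, and near Oxgr1, the gene of the oxoglutarate receptor. Their differences over all libraries were -46.6, -46.4, -43.8, -46.6 and -42.6 points. The Med13l region lay 317485 bp from that gene and 739 bp from the start of the non-coding Gm43782 in GENCODE vM21. A further long region near Ppp1r12a, the gene of a subunit of myosin phosphatase (chr10:108067438-108069427, 47 CpGs), varied little between the libraries of each group. It had 42.6%, 43.7% and 42.9% in mLN SPF, 41.2% and 40.7% in mLN GF, 81.9%, 83.1% and 80.4% in pLN SPF and 84.3% and 88.4% in pLN GF libraries.

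Positional and developmental transcription factors were the nearest gene of a small share of the far-distal regions. By the deposited nearest gene they accounted for 22 of 464 far-distal regions (4.74%) and for 166 of all 1575 location regions (10.5%), and by the nearest protein-coding start in GENCODE vM21 for 42 (9.05%) and 257 (16.3%). These counts were not tested. Of the 22, 15 were more and 7 less methylated in mLN, with a median size of 26.73 points, whereas 60 of the 166 were more methylated in mLN.

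The members with most CpGs near such genes are given next. At Shox2, a homeobox gene of limb and heart development (chr3:66746341-66747972, 46 CpGs, 230466 bp away), methylation was 77.8%, 78.9% and 75.1% in mLN SPF, 77.0% and 78.7% in mLN GF, 46.2%, 49.0% and 45.7% in pLN SPF and 50.1% and 51.7% in pLN GF libraries. At the homeobox gene Nkx1-1 (chr5:33511115-33512858, 54 CpGs) it was 67.0% to 70.0% in mLN SPF and 34.7% to 43.7% in pLN SPF libraries, and the SPF DMR differed by 27.5 ± 4.14 points (SE) in GF mice (limma adjusted p = 0.00127). Sox5, a gene for a transcription factor of cartilage, held a region in its own intron (chr6:143859559-143860525) that differed by 27.4 ± 5.13 points (SE) in GF mice (limma adjusted p = 0.00288).

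Six2, a homeobox gene of kidney progenitors, had 2 far-distal regions of opposite direction. The nearer, chr17:85774038-85776236, was less methylated in mLN, with 49.8%, 54.8% and 61.4% in mLN SPF against 69.6%, 67.1% and 66.0% in pLN SPF libraries. The farther, chr17:85847412-85848540, was more methylated in mLN, with 77.1%, 71.8% and 67.4% against 47.2%, 51.2% and 42.5%. In libraries outside the call they differed by -12.2 ± 4.66 points (SE; limma adjusted p = 0.0313) and by 23.6 ± 5.81 points (SE; limma adjusted p = 0.00844). The first passed the threshold without replicate 3 of mLN SPF but not without any other single SPF library (limma adjusted p from 0.0534 to 0.102), and the second lost its call without replicate 1 of mLN GF (limma adjusted p = 0.0590) and with medians over CpGs (limma adjusted p = 0.0588).

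The Iroquois homeobox genes lie in 2 clusters, of which 1 is on chromosome 8 and 1 on chromosome 13, and both had several far-distal regions; these loci were singled out after their values were seen. By the nearest protein-coding start, 8 regions on chromosome 8 belonged to Irx3, Irx5 or Irx6 over a span of 670697 bp, of which 7 were more methylated in mLN. The longest, chr8:91947901-91949570 with 42 CpGs at 145834 bp from Irx3, had 55.3%, 62.9% and 50.4% in mLN SPF, 57.4% and 60.7% in mLN GF, 13.0%, 20.1% and 15.8% in pLN SPF and 16.9% and 23.9% in pLN GF libraries. Its SPF DMR differed by 38.6 ± 4.57 points (SE) in GF mice (limma adjusted p = 7.31e-04). The region 91563 bp from Irx5 (chr8:92449359-92450122) had 61.1% to 68.7% in mLN SPF and 23.4% to 29.5% in pLN SPF libraries. The exception, with 4 CpGs, differed by 10.1 points in the other direction with overlapping libraries. On chromosome 13, 4 regions belonged to Irx1 or Irx2, 2 of each direction.

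Morphogens and their inhibitors were the deposited nearest gene of 1 far-distal region (0.216%) and of 14 location regions in all (0.889%). By the nearest protein-coding start in GENCODE vM21 they were so for 6 (1.29%), near Bmp2, Bmp6, Cyp26b1, Dkk1 and Fgf9, and for 24 in all (1.52%). The 1 region by the deposited gene, near Bmp6 of the bone morphogenetic protein family (chr13:38276724-38277157, 9 CpGs, 68557 bp away), had 17.9%, 27.5% and 21.5% in mLN SPF, 24.7% and 21.1% in mLN GF, 69.2%, 74.9% and 66.5% in pLN SPF and 74.9% and 64.4% in pLN GF libraries. Its GF DMR differed by -47.9 ± 4.72 points (SE) in SPF mice (limma adjusted p = 1.93e-05). Of the listed stromal factors such as chemokines and cytokines of the lymph node, 0 were the deposited nearest gene of a far-distal region and 6 location regions in all had one. By the nearest protein-coding start it was 1, near the chemokine gene Cxcl12, and 9 in all.

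Genes of extracellular matrix and adhesion were the deposited nearest gene of 6 far-distal regions (1.29%) and of 16 location regions (1.02%). By the nearest protein-coding start they were so for 12 (2.59%), 7 more and 5 less methylated in mLN, and for 30 in all (1.90%). By the deposited gene Thbs2, which encodes the matrix protein thrombospondin-2, had 3 far-distal regions within 14386 bp, all more methylated in mLN by 22.6 to 31.6 points, although their levels differed. The first was at 37.9% to 51.8% in mLN SPF and 19.4% to 22.5% in pLN SPF libraries, and the third at 79.2% to 93.9% and 61.3% to 69.8%. Near the cadherin gene Cdh6 a region of 35 CpGs (chr15:13367334-13368992) was less methylated in mLN, with 21.8%, 29.9% and 29.0% in mLN SPF against 45.2%, 48.0% and 52.1% in pLN SPF libraries. The region in an exon of Cdh23 spanned 45 bp with 4 CpGs and was also less methylated in mLN, by 42.8 ± 6.24 points (SE) in SPF mice (limma adjusted p = 1.51e-04).

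A part of the far-distal regions had a neighbour of the same kind. At most 20000 bp from another lay 157 of the 464 (33.8%), and 429 of the nearer location regions (38.6%) lay as close to another nearer one. Of the 86 far-distal pairs, 75 (87.2%) had the same direction, and among the nearer regions 266 of 285 (93.3%) did. The 461 regions with a listed gene belonged to 331 genes, 238 of which had a single region and 21 of which were nearest to at least 3 regions. The snRNA gene Gm26146 had 7 within 46518 bp, all more methylated in mLN by 20 to 43.0 points and all inside Bckdhb, a gene for a subunit of branched-chain keto acid dehydrogenase. One of them, chr9:84068303-84069434, overlapped a coding exon of Bckdhb and had 78.3% to 85.1% in mLN SPF and 48.4% to 52.4% in pLN SPF libraries. Levels within this group differed widely, and chr9:84114060-84114820 had 27.8% to 38.2% and 5.21% to 7.79%.

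Near Gm8825, where the closest protein-coding gene is the transcription factor gene Dmrt2, 6 regions over 136351 bp were more methylated in mLN by 3.66 to 50.1 points. The largest (chr19:25849319-25850017) had 88.1%, 86.5% and 72.9% in mLN SPF against 31.8%, 26.3% and 43.1% in pLN SPF libraries. The SPF DMR of 12 CpGs that starts at 25847963 was not called in GF mice (limma adjusted p = 0.0521). Neither were the SPF DMRs of 3 CpGs each that start at 25850335 and 25850775 (limma adjusted p = 0.371 and 0.497). Groups of the other direction were 4 regions near 4930474H06Rik, by the Wnt regulator gene Dact1, and 4 near Gm22867 within Arhgap15, with differences of 2.02 to 31.2 and 4.75 to 35.5 points in size. Directions were mixed in other groups, such as Tbc1d30 with 4 regions more and 1 less methylated in mLN, Tmem132d with 2 of each and Maml3, the gene of a Notch coactivator, with 1 more and 2 less. The regions of a group lie close together and are not independent of each other.

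Just above the distance limit lay the regions near Gm23179, at 50145 bp, and Gm13535, at 50268 bp, with differences over all libraries of 16.6 and 60.2 points. Just below it lay DMRs near Gm22136, at 49543 bp, and A930009A15Rik, at 49341 bp, with -27.1 and 44.2 points, and one without a listed gene at 49647 bp with -46.4 points.

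Short motifs were searched on both strands in the 300 bp around the middle of each region, and they may overlap each other. The sequence TGTTTAC of the FOX family was present in 24 far-distal regions (5.17%) and in 3.96% of the nearer ones. CACTTG of the NKX2 family was present in 15.3% and 16.7%, TGACAG of MEIS in 23.1% and 23.0%, TAATTA of homeodomain factors in 9.70% and 9.45%, and TGANTCA of AP-1 in 10.3% and 9.99%. GGAATG of TEAD was present in 21.3% and 17.9%, ACAATG of SOX in 18.5% and 14.7%, AGATAA of GATA in 18.3% and 16.8%, and CANNTG, the E-box, in 81.9% and 78.6%. The IRF motif was present in 4.96% and 4.95%. By direction, the shares in far-distal regions less and more methylated in mLN were 8.24% and 3.19% for FOX, 74.7% and 86.5% for the E-box, 22% and 16% for GATA, 18.7% and 13.1% for NKX2, 15.4% and 20.6% for SOX and 6.59% and 11.7% for homeodomain factors. They were 20.9% and 24.5% for MEIS, 22.5% and 20.6% for TEAD, 10.4% and 10.3% for AP-1 and 4.95% and 4.96% for IRF. None of these shares was tested. Among the 10 motifs the widest gap between far-distal and nearer regions was that of ACAATG, and a match is not a bound site.

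Housing was compared at the same regions to ask whether colonization by microbes came with a change there. Limma called 0 of the 464 far-distal regions between SPF and GF libraries in a model with location, and 0 (0%) of all 1602 regions. The 1602 included 27 regions that the authors called only between SPF and GF mice within a node, and these were not called here either. The count of 0 therefore does not show that housing had no effect. An unadjusted p under 0.05 was reached by 16 far-distal regions (3.45%) and by 72 of all (4.49%), and the smallest limma adjusted p of a far-distal region was 0.846. The median size of the difference was 2.62 points against a median SE of 3.74 points, and differences of this size were not detectable.

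The 3 regions with the smallest p for housing lay near Gm22035, Oxgr1 and Gm12689. At the Gm22035 region (chr13:38838763-38839031, 3 CpGs) the pLN libraries had 10.6%, 13.1% and 10.3% in SPF and 20.7% and 29.0% in GF mice, and the mLN libraries 54.4%, 60.7% and 65.4% in SPF and 76.8% and 64.8% in GF mice. SPF minus GF was -12.1 ± 3.49 points (SE; limma adjusted p = 0.846). At the Oxgr1 region (31 CpGs) the mLN libraries had 27.5%, 35.3% and 31.2% in SPF and 44.2% and 44.9% in GF mice, with -10.4 ± 3.24 points (SE; limma adjusted p = 0.846). At the Gm12689 region (3 CpGs) the difference was 12.7 ± 4.03 points (SE; limma adjusted p = 0.846). None of the 3 passed the threshold.

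The location difference was also compared between the housing conditions. Limma called 0 of the 464 far-distal regions for the interaction of location and housing, and 0 (0%) of all 1602 regions, with 31 far-distal regions and 143 of all at an unadjusted p under 0.05. The smallest limma adjusted p of a far-distal region was 0.287, and the median size of 5.87 points was below its median standard error of 7.19 points. The 31 were spread unevenly, with 2 of 132 regions in both tables, 4 of 119 in the SPF table alone and 25 of 213 in the GF table alone. Selection in 1 housing condition pushes the interaction away from 0 and selection in both pushes it towards 0, so these counts are a description. The smallest p belonged to the region of 3 CpGs near Slc35b3, at chr13:39352833-39353042, a DMR of the GF table. It had 32.8% and 25.4% in mLN GF against 79.4% and 81.9% in pLN GF libraries, and 50.5%, 46.4% and 45.9% against 60.0%, 67.9% and 40.2% in SPF mice, where the nodes overlapped. Near Npr3, the gene of the clearance receptor for natriuretic peptides (chr15:11774904-11775117, 6 CpGs), the interaction was -30.1 ± 7.17 points (SE; limma adjusted p = 0.304), with pLN at 28.2% to 31.5% in SPF mice and 2.08% and 19.8% in GF mice. At the region in an intron of Arhgap10 that is nearest to 0610038B21Rik (11 CpGs) it was 19.7 ± 6.02 points (SE; limma adjusted p = 0.445).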

How the data were processed

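The authors trimmed the reads (trim_galore, with cutadapt 1.4 and FastQC 0.11.1 in the submitters' processing notes), aligned them to GRCm38 with BSMAP (2.4.3 in those notes), kept unique, paired and de-duplicated reads, required a minimum coverage per CpG, and smoothed and called DMRs with bsseq from the number and spacing of CpGs, the mean difference and quantiles of the t-statistic. The deposited CpG table holds unsmoothed values, the methylated fraction of the reads at each CpG in each library; the read counts behind it were not used here. The deposited DMR tables also hold the authors' group means, differences, directions and scores, none of which were used.

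Each CpG was counted once. Fractions were averaged per DMR or merged region and library and expressed as a percent of methylated reads, and differences are percentage points of mLN minus pLN. Values by library describe the merged region, and tests in libraries outside a call describe the DMR itself, with the called direction taken as the sign of the unsmoothed difference in the calling libraries. Limma 3.58.1 (R 4.3.3) was fitted over all DMRs of a table or all regions, with Benjamini-Hochberg adjustment and a threshold of 0.05, and was tested on simulated data. Means over members were compared by exact permutation over libraries (Python 3.11.15). Same-numbered libraries were not paired, since the correlations of their deviations from the group means were -0.033 to 0.029.

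Named regions were the 8 largest differences in each direction with at least 10 CpGs, the 5 farthest, those nearest the distance limit, genes with at least 3 regions (a selection is described), the 5 with most CpGs per gene list, the 3 smallest p for housing and for interaction, called DMRs of opposite sign, and Ppp1r12a. Regions, lists and rules were chosen with earlier results of these data known. Genomic features and sequences came from RefSeq and GENCODE vM21 on GRCm38; 454 of the nearest-gene identifiers matched vM21. Alternatives were CpGs with a value in all 10 libraries, at least 5 CpGs, medians or pooled means over CpGs, a logit scale, a trended robust prior, a replicate block, a distance over 100000 bp, each library left out and, added after seeing the data, distances by GENCODE vM21.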

Additional observations from a re-analysis of the deposited data

How the results depend on the processing

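Counts of far-distal DMRs called in libraries outside their own call moved beyond 1.5 times only where fewer members entered by construction. Beyond 100000 bp limma called 122 of 137 SPF and 163 of 198 GF location DMRs, and with members over 50000 bp from every TSS of GENCODE vM21, a limit chosen after seeing the data, 120 of 135 and 155 of 178; with protein-coding starts alone it called 214 of 245 and 308 of 361. The mean difference of the SPF DMRs in GF mice was 31.8 points with at least 5 CpGs, 37.0 with medians over CpGs, 31.1 beyond 100000 bp, 30.8 with means pooled over CpGs and 30.8 by GENCODE vM21, and that of the GF DMRs in SPF mice was 33.4 with medians. Far-distal minus nearer SPF DMRs was -0.958 with at least 5 CpGs, -1.50 with medians and -0.473 beyond 100000 bp, and far-distal minus nearer GF DMRs was 2.77 with medians. Leaving out each library in turn gave 204 to 214 and 303 to 311 calls, mean differences of 29.6 to 30.1 and 27.7 to 29.8 points, far-distal minus nearer differences of -2.76 to -1.95 and 1.05 to 1.93 points, a level difference to promoter-proximal regions of 3.06 to 5.07 points (averaged over nodes of opposite sign), and 0 calls for housing and 0 for the interaction.

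With a replicate block limma called 226 SPF DMRs (219 of them also without it) and 318 GF DMRs (311 also without it). It called 0 regions for housing and interaction. The labels do not say whether same-numbered libraries belong together. Of 873 values of named DMRs and regions under the alternatives, 853 kept their direction and side of the threshold, 16 lost it, 2 gained it and 2 turned sign. The sign turned in the DMR of 4 CpGs near Gm21817, to 3.31 points without replicate 1 of mLN GF (-30.9 points without replicate 2), and in the DMR near Slc35b3, to 0.283 points with medians over CpGs, and neither was called in the main analysis; the cause was not tested. The main limits are 2 GF libraries per node, which leave exact permutation tests without power, unknown read depth, and few CpGs in short regions.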
